A study of Mus musculus with 6 samples.

Results

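Baseline gene expression was read from cultured lung endothelial cells of Ch25h-null mice that had received vehicle alone. The group consisted of 2 of the 6 RNA sequencing libraries of the study, which were chosen by their label, and the other 4 libraries (cells given tumour extracellular vesicles, with or without reserpine) entered no comparison. Ch25h encodes cholesterol 25-hydroxylase, which makes the oxysterol 25-hydroxycholesterol and is induced by interferon in many cells. The cells came from C57BL6 mice, labelled female and 3 weeks old, and grew in a serum-containing medium (15% FBS) with endothelial cell growth factor at 0.1 mg/ml and heparin at 0.5 mg/ml. The sample labels state vehicle alone, and the series text names PBS as vehicle, given for 12 h. Read literally, that text would also cover these cells with a reserpine pretreatment (10 µM for 8 h), which the sample labels do not mention; the labels were followed. Both libraries come from Ch25h-null cells, so nothing here separates the effect of that deletion from the state of wild-type cells. How the cells were purified, how long they were cultured, how many mice were pooled and whether the libraries came from separate cultures are not stated in the sources used here.

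Endothelial cells line blood and lymphatic vessels. In the lung they form the thin capillary wall through which gas is exchanged, and they hold fluid back with VE-cadherin junctions, regulate clotting and vessel tone, and recruit leukocytes with adhesion molecules and chemokines. Freshly isolated lung capillary endothelium is divided into general capillary cells and aerocytes (large gas-exchange cells marked by Car4), and in culture endothelial cells are known to lose part of such specialisation and to lay down matrix.

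The libraries held 41528816 (replicate 1) and 27528493 (replicate 2) estimated counts. Levels are given as CPM, the counts of a gene scaled to the library total, always with replicate 1 first. Levels of different genes are compared as TPM, the same scaling after division by the length of the longest annotated transcript. A percentile ranks a gene by mean TPM among the 19077 genes with a length and at least 1 estimated count in either library, so that all such genes have a median of 50. Those genes include non-coding genes and genes near the floor. Among protein-coding genes at 1 CPM only, 31 lists moved by over 10 points, with a median move of -11.8 (median transcript length). Endothelial transcription factor genes went from 68.5 to 51.0 and proliferation genes from 69.1 to 51.8. A count of 3, taken as the detection floor, equals 0.0722 CPM in replicate 1 and 0.109 CPM in replicate 2. Where genes are called higher or lower than one another, the order is that of TPM unless CPM is named. These floors and all intervals below cover counting error only.

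2 checks of the labels come first. Ch25h itself stood at 15.2 and 9.09 estimated counts (0.365 and 0.330 CPM), above the floor in both libraries. The deleted stretch is not described in the labels, and the reads may lie outside it, so they are no check of the genotype. Although both libraries are labelled female, 4 of 7 Y-linked genes examined were present in both. Xist and Tsix, the X-linked genes looked up with them, were not listed, so the female label could not be checked by Xist. Usp9y and Zfy1 stood under 1 estimated count in both libraries. Ddx3y, an RNA helicase gene, stood at 28.1 and 26.6 CPM. Kdm5d, a histone demethylase gene, stood at 20.1 and 19.7 CPM. Eif2s3y, a translation initiation factor gene, stood at 20.5 and 20.4 CPM. Uty, which encodes a demethylase-like protein, stood at 14.1 and 14.2 CPM, whereas Sry was under the floor in both libraries (0.0353 and 0 CPM). In TPM, Ddx3y reached 5.85% and 5.73% of its X-linked partner Ddx3x, Kdm5d 10.8% and 9.80% of Kdm5c, Eif2s3y 7.57% and 6.56% of Eif2s3x, and Uty 75.5% and 78.4% of Kdm6a. The X-linked partners were added after these values were seen, and reads can be shared between the X and Y copies. The Y-linked levels were thus alike in both libraries and low beside the X copy for 3 of the 4 genes, and every result below rests on these same 2 libraries.

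Of 30055 genes in the table, 12432 (41.4%) reached 1 CPM in both libraries, and of 21279 protein-coding genes 12129 did (57.0%). The share of protein-coding genes is the one to set beside each count of list members at 1 CPM below. A further 273 genes reached 1 CPM in replicate 1 only and 303 in replicate 2 only. In both libraries 9048 genes reached 10 CPM, 2205 reached 100 CPM and 93 reached 1000 CPM. The 10 most abundant genes held 6.23% and 6.17% of all counts, the 100 most abundant 20.8% and 20.7%, and 50% of counts lay in 867 and 864 genes. Of the 100 most abundant genes of each library, 95 were shared.

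By CPM, the most abundant gene was Fn1, which encodes fibronectin, an adhesive matrix glycoprotein. It stood at 15337 and 14642 CPM and took 1.53% and 1.46% of all counts. The other 9 nuclear genes of the 10 highest were Eef1a1 and Eef2 (translation elongation factors), Spp1 (osteopontin), Thbs1 (thrombospondin-1), Vim (vimentin), Fbln2 (fibulin-2), Actg1 (cytoplasmic actin), Bgn (biglycan) and Tnc (tenascin-C). Apart from the elongation factors, vimentin and actin, these genes encode secreted matrix or matricellular proteins. Thbs1 stood at 5437 and 4814 CPM, Tnc at 3008 and 3226 CPM and Fbln2 at 4133 and 3708 CPM.

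Per length, Eef1a1 led the nuclear protein-coding genes with 13999.8 and 13952 TPM. Spp1, a secreted phosphoprotein that binds integrins, was second with 10159.8 and 10422 TPM. Ftl1, the ferritin light chain, followed with 5351 and 5439 TPM. Tpt1, Tmsb4x (thymosin beta-4, which binds actin monomers), Actg1, Fn1, Vim and Actb came next, between 3955 and 5419.7 TPM in each library. The rest of the 25 highest were ribosomal protein genes (Rps2, Rps4x, Rplp0, Rplp1, Rpl10, Rpl19, Rpl41), the glycolytic enzymes Pkm and Eno1, the chaperones Hsp90ab1 and Hspa8, Eef2, the lysosomal protease Ctsd, S100a6, Bgn and Sparc, a collagen-binding matrix protein. These ranged from 2477 TPM (Rpl19) to 3614.5 TPM (Rps2) in a library. Spp1, Fn1, Bgn and Sparc put 4 secreted matrix proteins beside housekeeping genes in this set. With the median in place of the longest transcript length, 15 of the 25 genes were shared. Eef1a1 stayed first, but Fbln2 was second (7162 and 6348 TPM) and Spp1 stood at place 7 (4372 and 4568 TPM). Rplp0 was then the only ribosomal protein gene in the set, so these ranks depend on the length used.

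**Figure D1:**
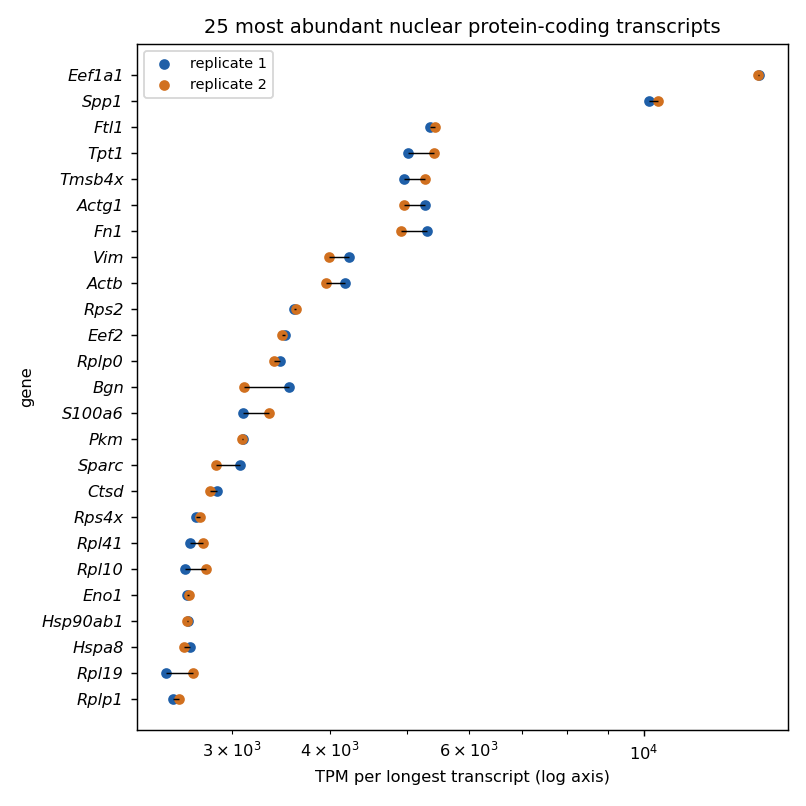
TPM per longest transcript (log axis) of the 25 nuclear protein-coding genes with the highest mean, with a blue point for replicate 1 and an orange point for replicate 2. Eef1a1 and Spp1 stand apart at the top, and the points of a gene lie close together.

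Mitochondrially encoded transcripts held 2.48% and 2.67% of counts, led by mt-Co1, a cytochrome oxidase subunit, at 8441 and 9230.1 CPM, and their reads can be shared with nuclear copies. The 101 cytosolic ribosomal protein genes held 3.13% and 3.38%. The basement membrane and interstitial matrix lists held 4.84% and 4.63%. Matrix genes thus took more of the counts than all ribosomal protein genes, although a count share favours long transcripts.

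The libraries agreed closely across genes. Over the 12760 genes with a mean of 1 CPM or more, Spearman's rho of the levels was 0.992 and Pearson's r of log2(CPM + 1) was 0.989; these are across genes, which are not independent replicates. The scaling factors by the trimmed mean of M values (TMM) were 1.0005 and 0.9995, so composition did not shift the libraries against each other. Among the 10536 genes with a mean of 5 CPM or more the median size of the log2 ratio was 0.11, and 8951 of them (84.96%) lay within 1.2-fold. The common coefficient of variation, from edgeR's dispersion, was 0.116. At least 2-fold apart were 104 genes (0.987%), of which 67 were higher (0.636%) and 37 lower (0.351%) in replicate 2. With 2 libraries of 1 group there is no test of such a difference, and a fold is given with its counting interval.

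**Figure D2:**
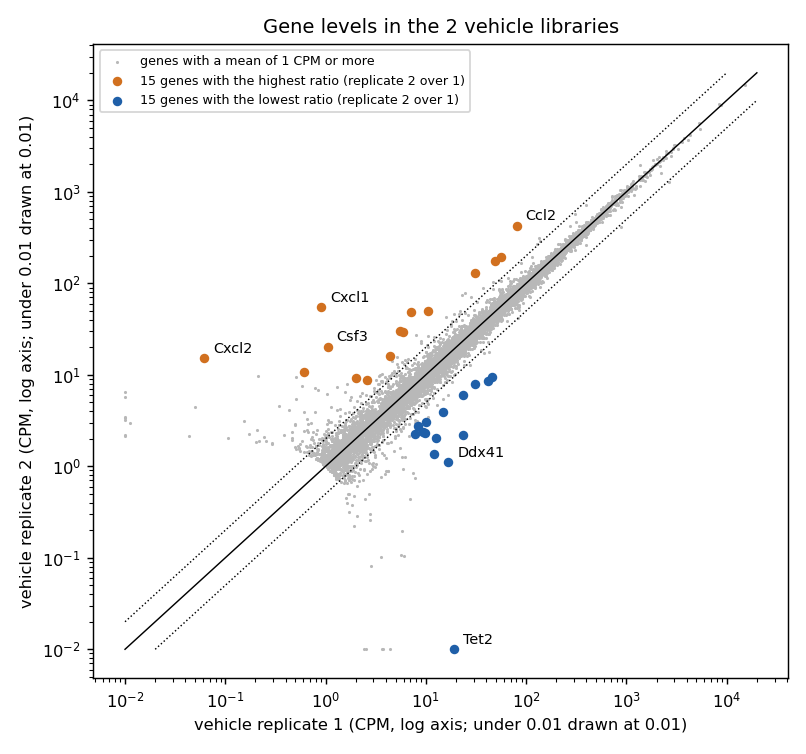
CPM in vehicle replicate 1 (horizontal, log axis) against replicate 2 (vertical, log axis) for genes with a mean of 1 CPM or more, with values under 0.01 drawn at 0.01; the solid line marks equal levels and the dotted lines 2-fold. Most genes lie along the diagonal, the orange points (highest ratios, among them Cxcl1, Cxcl2, Csf3 and Ccl2) lie above it and the blue points (lowest ratios, among them Tet2 and Ddx41) below.

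The spread depended on level. Between 1 and 3 CPM the median size of the log2 ratio was 0.35, against 0.19 expected from counting error alone, and 12.2% of genes were at least 2-fold apart. Between 30 and 100 CPM it was 0.093 against 0.033, and 0.314% of genes were 2-fold apart. Above 1000 CPM it was 0.063 against 0.0060. The spread thus exceeded counting error at each of these levels.

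**Figure D3:**
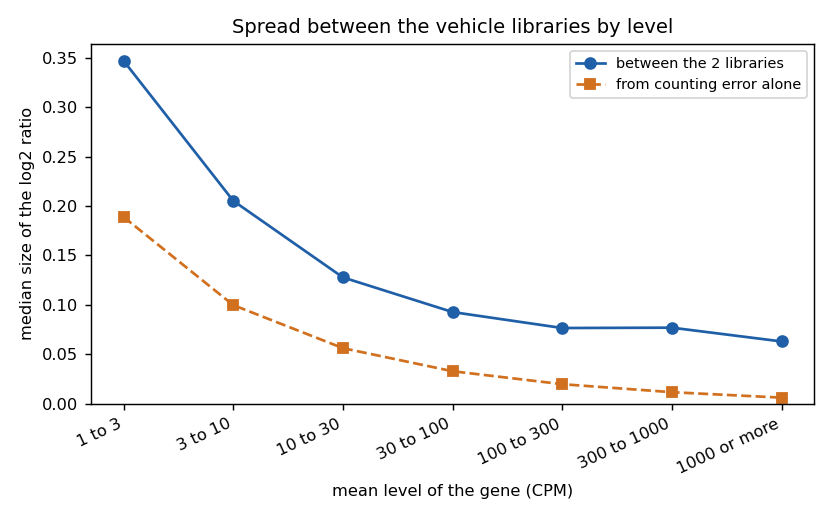
Median size of the log2 ratio between the 2 vehicle libraries by mean level of the gene (CPM), in blue, and the size that counting error alone would give, in orange. The observed spread falls with level to 0.063 above 1000 CPM and lies above the counting line in every level class.

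The cells carried a broad endothelial signature. All 32 endothelial identity genes reached 1 CPM in both libraries (57.0% of all protein-coding genes did). Of these, 18 lay above the 90th percentile, where 10% of detected genes lie. Their median percentile was 95.04 per longest transcript and 88.8 per median transcript. Cdh5, which encodes VE-cadherin, the adhesion molecule of endothelial junctions, stood at 1816 and 1823 CPM (percentile 99.5). Pecam1 (CD31), a junctional receptor used to sort endothelial cells, stood at 762 and 779 CPM. Plvap, the protein of fenestral and caveolar diaphragms, stood at 514 and 519 CPM. Each of these was near equal in both libraries. The receptor Tie1 stood at 628 and 633 CPM, the TGF-beta co-receptor Eng at 514 and 507 CPM and Kdr, the main receptor for VEGF-A, at 356 and 319 CPM. The lowest members were Sox17, an arterial transcription factor gene, at 9.38 and 8.89 CPM, and Clec14a, an endothelial lectin-like receptor gene, at 11.8 and 10.8 CPM. Vwf, which encodes the clotting carrier stored in Weibel-Palade bodies, stood lower than most members per length, at 53.1 and 45.3 CPM (percentile 59.7). In bulk RNA, fewer cells of a type and less RNA per cell cannot be told apart, which holds for every marker below.

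Markers of lung capillary subtypes were split. Among general capillary genes, Plvap, Cxcl12 (336 and 305 CPM), Aplnr, the apelin receptor (149 and 138 CPM) and Kit (79.6 and 86.9 CPM) were well expressed. Gpihbp1, which anchors lipoprotein lipase on capillaries, was lower at 17.1 and 15.6 CPM. Cd36, a fatty acid transporter (0.679 and 0.138 CPM), and Hpgd, a prostaglandin-degrading enzyme (0.146 and 0.0734 CPM), stood under 1 CPM. Among aerocyte genes, Car4 stood at 0.0351 and 0 CPM, under the floor in both libraries. Ednrb, the endothelin B receptor, stood at 36.7 and 33.3 CPM and Apln, the ligand of Aplnr, at 180.4 and 196 CPM. The defining gene of aerocytes was therefore at background while 9 of the 12 genes on that list reached 1 CPM in both libraries.

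Lymphatic genes were expressed at levels close to those of the arterial list. All 10 reached 1 CPM in both libraries, with 4 above the 90th percentile and a median percentile of 87.9. The median percentile was 85.5 for the arterial list, with 6 of 13 above the 90th, and 71.8 for the venous list, with 4 of 11. Thy1 is on both the lymphatic and the fibroblast list. Flt4, the receptor for VEGF-C, stood at 699 and 693 CPM. Lyve1, a hyaluronan receptor, stood at 250.1 and 243 CPM. Prox1, the transcription factor that sets lymphatic identity, stood at 166 and 136 CPM (percentile 81.8), and Reln, secreted by lymphatic endothelium, at 329 and 336 CPM. Per length Flt4 (322 and 309 TPM) and Lyve1 (249 and 235 TPM) stood above Kdr (173 and 151 TPM), and Prox1 (60.5 and 47.8 TPM) below it. Pdpn (podoplanin) stood at 192 and 232 CPM and Mmrn1 at 132 and 128 CPM. By contrast Ccl21a, a chemokine of lymphatic vessels, stood at 2.54 and 2.51 CPM and the scavenger receptor gene Stab2 at 3.40 and 2.79 CPM.

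Arterial and venous genes were both present. Of the arterial list all 13 reached 1 CPM in both libraries, with Efnb2 (ephrin-B2) at 182 and 178 CPM and the Notch ligand gene Dll4 at 93.3 and 89.0 CPM. The arterial connexin genes were low, with Gja4 at 2.34 and 2.90 CPM and Gja5 at 2.51 and 2.52 CPM. On the venous side Ephb4, the receptor for ephrin-B2, stood at 242 and 238 CPM and Nr2f2 (COUP-TFII), a venous transcription factor gene, at 75.3 and 68.4 CPM. Ackr1, a marker of postcapillary venules, stood at 2.15 and 4.04 CPM. Vcam1 stood at 309 and 576 CPM and Selp (P-selectin) at 116 and 193 CPM, both higher in replicate 2.

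**Figure D4:**
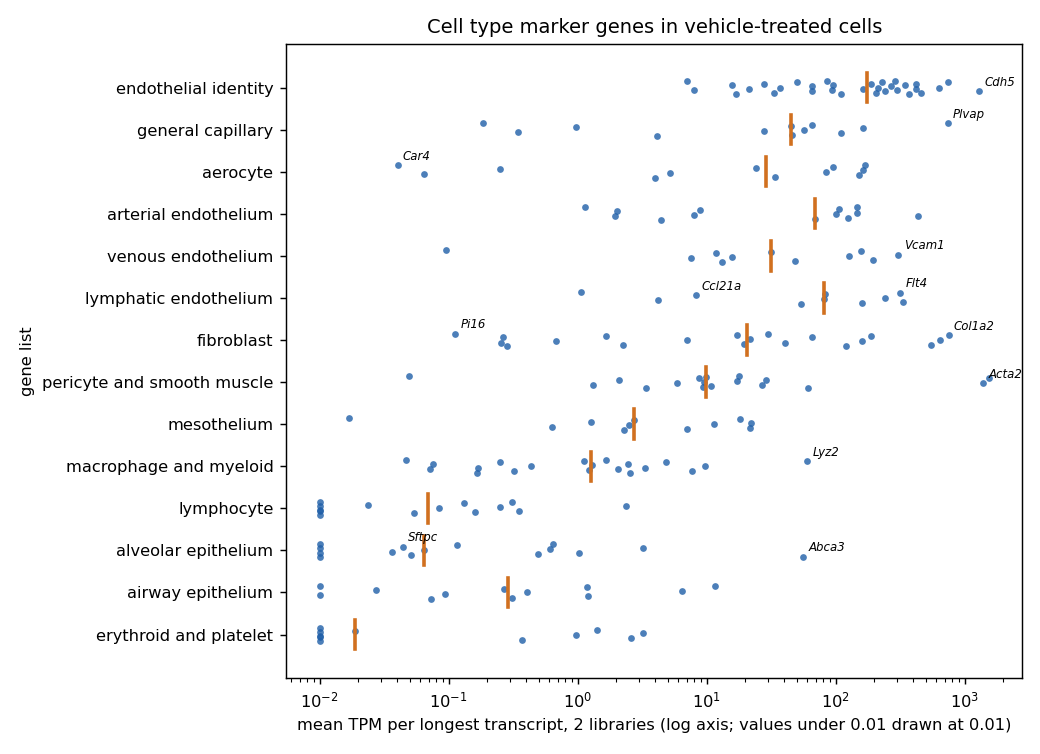
Mean TPM per longest transcript over the 2 vehicle libraries (log axis, values under 0.01 drawn at 0.01) of each gene of 14 cell type lists, with an orange bar at the list median. Endothelial identity genes have the highest median, fibroblast and mural lists hold a few genes as high, and lymphocyte, alveolar and erythroid lists lie near the bottom apart from Abca3.

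Genes of other lung cell types were checked in the same way. Of 20 fibroblast genes 14 reached 1 CPM in both libraries, and their median percentile was 64.3 per longest and 64.7 per median transcript. The summed level was 5404 and 4871 CPM, most of it from 3 collagen chains. Col1a2 stood at 1521 and 1304 CPM. Col5a2 stood at 1541 and 1477 CPM and Col1a1 at 1229.7 and 1079.7 CPM. Col1a1 and Col1a2 form collagen I, the main fibrillar collagen of connective tissue. Pdgfra, the receptor that marks lung fibroblasts, stood at 168 and 145 CPM (percentile 84.6) and Lox, a collagen cross-linking enzyme, at 208 and 194 CPM. Thy1 stood at 103 and 94.6 CPM, Mfap5, a microfibril protein, at 34.7 and 37.1 CPM, Dcn (decorin) at 27.7 and 37.0 CPM and Postn (periostin) at 31.0 and 32.0 CPM. Other members were low. Tcf21, a lung fibroblast transcription factor gene, stood at 0.414 and 0.440 CPM, Lum (lumican) at 0.268 and 0.220 CPM and Pi16, an adventitial fibroblast gene, at 0.148 and 0.167 CPM. The fibroblast list thus ranged from abundant collagens to 6 genes under 1 CPM in both libraries. Whether the expressed genes come from endothelial cells or from other cells in the culture cannot be told apart in bulk RNA.

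Of 17 pericyte and smooth muscle genes 15 reached 1 CPM in both libraries, with a median percentile of 53.0. Acta2 (smooth muscle actin) stood at 1009 and 994 CPM and Tagln (transgelin), another contractile gene, at 854 and 883 CPM, both at percentile 99.5 or above. Pdgfrb, the pericyte receptor for PDGF-B, stood at 128 and 107 CPM. The more restricted mural genes were lower. Myh11, the smooth muscle myosin heavy chain, stood at 23.1 and 22.7 CPM, Cspg4 (NG2) at 17.7 and 15.9 CPM, Rgs5 at 4.48 and 5.39 CPM and Higd1b at 0.0254 and 0 CPM. Of 11 mesothelial genes 8 (72.7%) reached 1 CPM in both libraries, with a median percentile of 40.5 and a highest mean of 17.4 CPM. Upk3b stood at 14.5 and 13.98 CPM and Msln (mesothelin) at 2.49 and 1.71 CPM.

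Most genes of blood and epithelial lineages were low. Of 20 macrophage and myeloid genes 7 reached 1 CPM in both libraries, led by Lyz2 (lysozyme) at 25.3 and 30.4 CPM. Ptprc (CD45), carried by all leukocytes, stood at 0.830 and 0.938 CPM. None of 14 lymphocyte genes reached 1 CPM in both libraries, and Cd3e stood at 0 in both. Of 15 alveolar epithelial genes, Sftpc, a surfactant protein gene, stood at 0.0244 and 0 CPM, Epcam at 0 in both, and only Abca3, a lipid transporter, was abundant (133 and 122 CPM). The second member at 1 CPM in both was Ager at 1.84 and 2.44 CPM. Haemoglobin genes (Hba-a1, Hba-a2, Hbb-bs, Hbb-bt) stood at 0 in both libraries. A 0 here is a listed value: genes used by every cell, such as Ndufa4 of the respiratory chain and Hsf1 of the heat shock response, were also listed at or near 0, so a listed 0 can be a failed read assignment.

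Many matrix and most cytoskeletal genes were abundant. Of 19 basement membrane genes 18 reached 1 CPM in both libraries and 11 lay above the 90th percentile. Col4a1 and Col4a2, the chains of vascular collagen IV, stood at 2344 and 2255 CPM and at 1978 and 1993 CPM. Hspg2 (perlecan) stood at 2450.5 and 2318 CPM and Col18a1, the precursor of endostatin, at 1934 and 1945 CPM. Of the laminin chains, Lamb1 (739 and 741 CPM), Lamc1 (516 and 530.1 CPM) and Lama4 (399 and 466 CPM), which together form a laminin of endothelial basement membranes, were high. Lama5 was lower at 143 and 129 CPM, and Lama3, an epithelial chain, stood at 0.779 and 0.798 CPM. The abundant chains named here occur in vascular basement membranes, but which cells in the culture made them was not measured.

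Of 25 interstitial matrix genes 13 lay above the 90th percentile, whereas Eln (elastin) stood at 0.802 and 1.06 CPM and Fbln5, which assembles elastic fibres, at 2.35 and 2.36 CPM. Among matricellular genes, Ctgf (1027 and 903 CPM) and Cyr61 (382 and 380.0 CPM), targets of YAP signalling, were abundant. The protease inhibitor genes Timp2 (2151 and 1918 CPM), Timp3 (892 and 676 CPM) and Timp1 (402 and 471 CPM) were abundant as well. Mmp14, a membrane-bound matrix protease, stood at 279 and 290.0 CPM and Mmp2 at 223 and 214 CPM. Of 38 cytoskeletal genes 36 lay above the 90th percentile. The exceptions were Ezr (percentile 84.9) and Myl6, a ubiquitous myosin light chain listed at only 1.48 and 1.82 CPM. Myl6 is among the genes whose level may reflect read assignment, which was not tested. All 13 genes of the mesenchymal transition list reached 1 CPM in both libraries, among them Zeb1 at 219 and 228 CPM, Prrx1 at 238 and 218 CPM, Snai2 at 43.0 and 30.5 CPM and Twist1 at 15.1 and 14.9 CPM.

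Integrins, the receptors for this matrix, were led by Itgb1, the shared beta chain, at 2439 and 2409.9 CPM. Its partner Itga5, which completes the fibronectin receptor, stood at 773 and 904 CPM. Itga6, a laminin receptor chain, stood at 399.8 and 386 CPM, Itgav at 388 and 359 CPM and Itgb3 at 199.5 and 209 CPM. The leukocyte chain Itgb2 stood at 2.95 and 3.49 CPM and the epithelial chain Itgb6 at 0.0764 and 0.143 CPM. The ligand of Itga5 and Itgb1, Fn1, was the most abundant transcript by CPM, as given above.

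Of 22 junction genes 12 lay above the 90th percentile, while occludin and the arterial connexins were low. All 22 reached 1 CPM in both libraries, with a median percentile of 93.0. These values include Nectin2 as read under the older name Pvr. Pvr is also the symbol of a different gene, so Nectin2 itself may not have been measured. The catenin genes Ctnnb1 (1127 and 1063 CPM), Ctnna1 (739 and 758 CPM) and Ctnnd1 (557 and 510.1 CPM), which link VE-cadherin to actin, were high. Cldn5, the main endothelial claudin, stood at 229.5 and 229 CPM and Tjp1 (ZO-1) at 349.7 and 314 CPM. Ocln (occludin) was low at 3.18 and 3.89 CPM. Gja1 (connexin 43) stood at 479.9 and 504 CPM, far above Gja4 and Gja5. All 20 caveolae and transcytosis genes reached 1 CPM in both libraries, with Cav1 (caveolin-1) at 321 and 315 CPM and Ptrf (cavin-1) at 514 and 492 CPM. Stab1, a scavenger receptor gene, stood at 1469 and 1337 CPM and Lrp1, an endocytic receptor gene, at 1599 and 1438 CPM. Mfsd2a, a lipid transporter known to restrain transcytosis at the blood-brain barrier, was lowest at 3.89 and 5.66 CPM.

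Plasminogen activation genes of the coagulation list were abundant. Plau (urokinase), a plasminogen activator, stood at 1057 and 1131 CPM and its receptor gene Plaur at 132 and 150.3 CPM. Thbd (thrombomodulin), an anticoagulant receptor, stood at 510.0 and 479 CPM and Procr, the protein C receptor, at 162 and 178 CPM. F3 (tissue factor), which starts clotting, stood at 63.5 and 67.0 CPM and F8 at 7.51 and 7.50 CPM. Of 22 genes 14 lay above the 90th percentile.

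Among vasoactive genes Ptgs2 was the highest per length. Ptgs2 (COX-2), the inducible cyclooxygenase, stood at 1374 and 1980.0 CPM (percentile 99.4), above the constitutive Ptgs1 at 328 and 321 CPM. Ptges, which makes prostaglandin E2, stood at 133 and 313 CPM, and Ptgis, which makes prostacyclin, at 78.6 and 83.0 CPM. Ptgs2 and Ptges were both higher in replicate 2, Ptges by 2.35 (95% counting interval 2.27 to 2.43). Nos3, the endothelial nitric oxide synthase, stood at 127 and 123 CPM and Nos2, the inducible one, at 9.91 and 13.96 CPM. Edn1 (endothelin-1) stood at 27.6 and 28.8 CPM and its converting enzyme Ece1 at 501 and 490.1 CPM. Ace, abundant in lung capillaries in vivo, stood at 13.0 and 11.3 CPM.

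Angiogenic receptors were well expressed and several ligands were made by the same cultures. Of the VEGF receptors Flt4 and Kdr exceeded Flt1 (80.9 and 80.3 CPM) by CPM and, at 322 and 309 TPM, 173 and 151 TPM and 33.8 and 32.5 TPM, also per length. The neuropilin genes Nrp2 (464 and 451 CPM) and Nrp1 (209 and 169 CPM) and the semaphorin receptor gene Plxnd1 (1342 and 1369 CPM) were abundant. Among ligands, Vegfa stood at 157 and 168 CPM, Pgf at 77.4 and 91.8 CPM and Vegfc at 7.55 and 11.6 CPM. Angpt2, the context-dependent antagonist of Tek, stood at 309 and 347 CPM, whereas Angpt1, its agonist, stood at 0.317 and 0.404 CPM. Tek itself stood at 108 and 108 CPM. All 23 tip cell and angiogenesis genes reached 1 CPM in both libraries, although Esm1, a marker of tip cells, stood at only 29.2 and 29.2 CPM.

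Of 20 Notch pathway genes 19 reached 1 CPM in both libraries. The receptor genes ran from Notch4 (298 and 263 CPM) and Notch1 (222 and 211 CPM) to Notch3 (25.1 and 23.9 CPM), a mural receptor. The ligand gene Jag1 stood at 189 and 212 CPM. Of the target genes Hes1 stood at 35.3 and 31.0 CPM, Hey1 at 7.90 and 7.18 CPM and Hey2 at 0.924 and 1.03 CPM. Per length, however, Hes1 (69.3 and 59.0 TPM) was level with Notch1 (67.4 and 62.2 TPM), and only the Hey genes lay far below the main receptors.

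In the TGF-beta and BMP list 31 of 33 genes reached 1 CPM in both libraries. The highest was Grem1, a secreted BMP antagonist, at 2249 and 2304 CPM (percentile 99.6). Inhba, which encodes activin A, stood at 632 and 592 CPM. The receptor genes Tgfbr2 (589 and 561 CPM), Acvrl1 (169 and 169 CPM) and Bmpr2 (211 and 195.2 CPM) exceeded Tgfbr1 (51.2 and 43.4 CPM). Of the ligands Tgfb1 stood at 196 and 207 CPM, Bmp4 at 36.9 and 34.2 CPM and Bmp6 at 13.0 and 14.5 CPM. The BMP target genes Id3 (129 and 132 CPM) and Id1 (40.4 and 42.1 CPM) were expressed. Other BMP antagonists were low, with Nog (noggin) at 0.852 and 0.624 CPM and Fst (follistatin) listed at 0.

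Endothelial transcription factor genes had a median percentile of 76.3. Of 35 genes 32 reached 1 CPM in both libraries. Both values include Mrtfa as read under the older name Mal. Mal is also the symbol of a different gene, so Mrtfa itself may not have been measured. Among ETS factors Elk3 stood at 306 and 305 CPM, Ets1 at 214 and 229 CPM, Fli1 at 44.1 and 43.2 CPM and Erg, which maintains endothelial identity, at 36.2 and 27.5 CPM. Sox18 stood at 153 and 156 CPM and Sox7 at 117 and 142 CPM, above their relative Sox17 given above. Klf6 (255 and 263 CPM) and Klf4 (87.2 and 78.0 CPM) exceeded Klf2, which is induced by blood flow, at 20.0 and 18.9 CPM. The cultures were not described as grown under flow. Mef2c was listed at 1.64e-08 CPM in replicate 1 and 1.68 CPM in replicate 2, and Meox2 stood at 0.390 and 0.404 CPM.

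Positional genes were partly expressed. Of 26 lung positional genes 16 (61.5%) reached 1 CPM in both libraries, near the 57.0% of all protein-coding genes. Their median percentile was 46.8. Of the 39 Hox genes listed, 18 (46.2%) reached 1 CPM in both libraries. The HoxB cluster had 8 of 10 genes at that level with a summed 106 and 95.9 CPM. The HoxA cluster had 6 of 11 with 55.7 and 44.8 CPM, HoxD 4 of 9 with 22.8 and 24.9 CPM, and HoxC 0 of 9 with 1.32 and 1.31 CPM. Hoxa5, needed for lung development, was highest per length at 36.6 and 30.5 TPM, followed by Hoxb4 at 27.4 and 24.9 TPM. Foxf1, a factor of lung mesenchyme and capillaries, stood at 34.2 and 46.8 CPM. The T-box genes Tbx3 (49.3 and 62.7 CPM) and Tbx4 (21.8 and 20.1 CPM) were expressed, while Tcf21, a second mesenchymal factor, stood at 0.414 and 0.440 CPM and Nkx2-1, the factor of lung epithelium, at 0.522 and 0.447 CPM. The order of the clusters was the same in both libraries.

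Proliferation genes were expressed throughout. All 30 proliferation genes reached 1 CPM in both libraries, with a median percentile of 63.2. Mki67, present in cycling cells, stood at 90.6 and 68.1 CPM, Top2a at 81.4 and 69.6 CPM and Pcna at 76.7 and 84.6 CPM. Mitotic genes such as Plk1 (12.4 and 8.65 CPM) and Ccnb1 (19.2 and 13.9 CPM) were lower. The G1 cyclin genes Ccnd2 (1369.7 and 1170.5 CPM) and Ccnd1 (896 and 783 CPM) were far higher. Among inhibitors Cdkn1a (p21) stood at 216 and 271 CPM, Cdkn2a (the INK4A/ARF gene) at 101 and 106 CPM and Cdkn2b at 94.2 and 92.4 CPM. Of 22 genes of cell cycle control and senescence 12 lay above the 90th percentile. Cycling markers and cell cycle inhibitors were thus expressed in the same libraries; which cells carried each was not measured.

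Of 24 immediate early genes 11 lay above the 90th percentile, and their median percentile was 83.8. Among them were Fosl2 at 304 and 316 CPM, Myc at 144 and 152 CPM and Jun at 125 and 133 CPM. The dual-specificity phosphatase genes Dusp4 (199 and 164 CPM) and Dusp6 (121 and 121 CPM), feedback inhibitors of MAP kinases, were similar. Fos itself stood at 5.32 and 4.77 CPM and Egr3 at 0.230 and 0.609 CPM. Fos, the classic first responder, was thus low in both libraries.

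Glycolytic genes were among the most abundant enzymes. Pkm stood at 2616 and 2689 CPM, Gapdh at 2117 and 2421 CPM and Ldha at 819.9 and 925 CPM. Hif1a, the oxygen-regulated factor, stood at 363 and 425 CPM and the glucose transporter gene Slc2a1 at 190.3 and 216 CPM. Car9, a strict hypoxia marker, stood at 6.93 and 4.82 CPM. Of 26 nuclear respiratory chain genes 18 lay above the 90th percentile, led by Atp5b at 1045 and 1077 CPM. Redox genes were high too. Fth1 stood at 1175 and 1301 CPM, Hmox1 (heme oxygenase-1) at 809 and 917 CPM and Prdx1 at 662 and 759 CPM. Of 27 chaperone genes 21 lay above the 90th percentile, but the stress-inducible Hspa1a stood at only 6.55 and 6.31 CPM. The amino acid response list had a median percentile of 93.8, with its factor Atf4 at 273 and 287 CPM and the asparagine synthetase gene Asns at 213 and 207 CPM. Lysosomal and endocytic genes had a median percentile of 95.04 and were led by Ctsd and Lamp1 (1133 and 1175 CPM). Translation genes had a median percentile of 99.4.

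Sterol genes were measured as the context of the deletion. Soat1, which esterifies cholesterol, stood at 126 and 118 CPM. The other cholesterol hydroxylase genes were low, with Cyp27a1 at 1.28 and 0.778 CPM and Cyp46a1 at 0.753 and 1.06 CPM. Cyp7b1, which clears 25-hydroxycholesterol, stood at 0.438 and 1.03 CPM, and Gpr183, the receptor for its product, at 4.26 and 3.33 CPM. All 26 cholesterol synthesis genes reached 1 CPM in both libraries. Srebf2, the transcription factor gene that drives the pathway, stood at 113 and 124 CPM and Sqle (squalene epoxidase) at 61.0 and 61.5 CPM. The oxysterol receptor gene Nr1h2 (LXR-beta) at 53.5 and 51.0 CPM exceeded Nr1h3 (LXR-alpha) at 4.11 and 3.84 CPM. LXR target genes Abca1 (205 and 182 CPM) and Abcg1 (77.1 and 74.4 CPM), cholesterol exporters, were expressed, while Abcg5 stood at 0.0871 and 0.0669 CPM. Scd2, a fatty acid desaturase, was the highest of that list at 544 and 515 CPM. Among lipid genes Fabp4, shared by capillary endothelium and fat, stood at 104 and 115 CPM, whereas Adipoq, restricted to fat cells, was under the floor at 0.0204 and 0 CPM.

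Of 22 monoamine genes 11 (50%) reached 1 CPM in both libraries, beside 57.0% of all protein-coding genes. The vesicular transporter genes, the targets of reserpine, were low, with Slc18a1 at 4.85 and 4.82 CPM and Slc18a2 at 3.69 and 3.60 CPM. The degrading enzyme gene Maoa (44.7 and 49.5 CPM) was higher, as was the serotonin receptor gene Htr2a at 67.6 and 72.9 CPM. Th, the first enzyme of catecholamine synthesis, was listed at 0 in both libraries. Of 12 nerve and muscle genes 5 reached 1 CPM in both libraries, led by Tubb3 at 37.3 and 39.4 CPM.

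Interferon receptors were expressed and most interferon-stimulated genes were low. Ifnar1 and Ifnar2, the type I interferon receptor, stood at 144 and 151 CPM and at 57.8 and 63.5 CPM, and the kinase gene Jak1 at 386 and 402 CPM. Ifnb1 was listed at 0 in both libraries. The type I interferon response list had a median percentile of 39.7, below the 50 of all detected genes. Isg15 stood at 0.828 and 1.06 CPM, Ifit1 at 1.17 and 1.45 CPM and Oas2 at 0.0475 and 0.0358 CPM. Above the 90th percentile were Ifitm3 (124 and 155 CPM), Ifitm2 (86.3 and 98.4 CPM), Ifi27 (52.1 and 54.0 CPM) and Bst2 (35.9 and 37.1 CPM), of which the first pair and Bst2 (tetherin) restrict viruses. Ddx58, which encodes the RNA sensor RIG-I, followed at 87.1 and 94.0 CPM. MHC class I genes were expressed, with B2m at 268 and 328 CPM (percentile 99.3) and H2-K1 at 46.0 and 67.7 CPM, and MHC class II genes were near the floor, with Cd74 at 0.0912 and 0.122 CPM. Of the Toll-like receptor genes Tlr4 was highest at 49.3 and 54.9 CPM, and the DNA sensing adaptor gene Tmem173 (STING) stood at 26.3 and 27.8 CPM.

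The clearest difference between the libraries lay in inflammatory genes. The 15 highest ratios of replicate 2 to replicate 1 (mean of at least 5 CPM) included 6 chemokine and cytokine genes (Cxcl2, Cxcl1, Csf3, Ccl2, Lif, Il6), 3 matrix protease genes (Mmp13, Mmp10, Mmp3) and 3 secreted defence proteins (Saa3, Lcn2, Slpi). Irg1, which makes itaconate, Steap4, a metalloreductase, and St3gal1, a sialyltransferase, completed the set. 3 of these genes, Cxcl1, Cxcl2 and Il6, carry a match to the NF-kappaB consensus close to the start of transcription, and their RefSeq promoters (GRCm38.p6, the 250 bases before the start, plus strand in each case) are shown because the largest ratios fall on 2 of them. Capitals mark bases that fit the consensus of NF-kappaB, an inflammatory transcription factor, on either strand.
Cxcl1, chr5:90890995-90891244: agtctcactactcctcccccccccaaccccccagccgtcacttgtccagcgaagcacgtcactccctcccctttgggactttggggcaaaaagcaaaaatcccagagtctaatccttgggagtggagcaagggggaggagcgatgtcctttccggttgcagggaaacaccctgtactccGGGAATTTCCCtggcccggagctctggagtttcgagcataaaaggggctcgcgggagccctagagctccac
Cxcl2, chr5:90903649-90903898: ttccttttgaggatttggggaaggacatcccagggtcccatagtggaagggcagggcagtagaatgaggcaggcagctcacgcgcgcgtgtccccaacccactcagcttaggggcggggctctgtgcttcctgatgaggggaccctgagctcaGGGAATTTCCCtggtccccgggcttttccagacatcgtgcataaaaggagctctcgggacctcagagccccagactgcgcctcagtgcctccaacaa
Il6, chr5:30012864-30013113: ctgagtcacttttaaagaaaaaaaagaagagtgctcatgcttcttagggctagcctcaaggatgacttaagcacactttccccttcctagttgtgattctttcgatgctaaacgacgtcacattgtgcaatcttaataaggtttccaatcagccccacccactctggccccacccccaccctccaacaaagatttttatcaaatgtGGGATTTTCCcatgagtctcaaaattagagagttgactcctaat

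In Cxcl1 and Cxcl2 the matches on the 2 strands overlap and make the same 11 bases, which end 61 and 87 bases before the start. In Il6 the match ends 35 bases before the start. The 10-base consensus was found, on either strand, in 3.90% of all 32851 RefSeq promoter windows. Among the 15 genes with the highest ratios 12 had a window, and 4 of these (33.3%) held the consensus: Cxcl1, Cxcl2, Il6 and Steap4. Csf3, Ccl2 and St3gal1 had no entry. Of the 15 genes with the lowest ratios 9 had windows, and 0 of their 21 windows held it. The share also exceeded that of all windows in sets chosen for level or cell type, with 4 of 25 windows (16%) of the 25 highest genes per length and 4 of 22 windows (18.2%) of the endothelial identity list, so nothing particular to the genes that differed between the libraries is read from it. The letters TATAAA, on either strand, were in 5 of the 12 windows (41.7%: Irg1, Mmp3, Mmp10, Mmp13, Steap4) and in 12.4% of all windows. Neither motif overlapped the other in these windows. A match describes the sequence and is not a measured binding site.

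Cxcl2, a chemokine for neutrophils, stood at 0.0615 and 15.1 CPM (2.55 and 415 estimated counts), under the floor in replicate 1, a ratio of 246 (95% counting interval 71.0 to 1017). Cxcl1, a second neutrophil chemokine, stood at 0.898 and 54.5 CPM, a ratio of 60.7 (95% counting interval 44.2 to 87.3). Csf3 (G-CSF), which drives neutrophil production, stood at 1.05 and 20.4 CPM, a ratio of 19.5 (95% counting interval 14.4 to 27.5). These 3 genes were near or under 1 CPM in replicate 1 and clearly expressed in replicate 2. Ccl2, which recruits monocytes, was abundant in both, at 80.4 and 428 CPM, a ratio of 5.33 (95% counting interval 5.13 to 5.54). Irg1 stood at 0.609 and 10.6 CPM. Lif, a cytokine of the interleukin-6 family, stood at 55.8 and 193 CPM and Il6 at 2.59 and 8.81 CPM. The chemokine and cytokine genes thus differed at levels from near the floor to above 100 CPM.

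Of the proteases, Mmp13, a collagenase, stood at 7.04 and 48.6 CPM, a ratio of 6.92 (95% counting interval 6.10 to 7.89). Mmp10 and Mmp3, the stromelysins, stood at 30.9 and 130.2 CPM and at 49.2 and 176 CPM. Mmp9, below 5 CPM on average, had a ratio of 4.14 (95% counting interval 3.12 to 5.65). The matrix protease and inhibitor list had a median log2 ratio of -0.049 over 28 genes. Of 27 averaging 5 CPM or more, 2 (Mmp13 and Mmp3) were at least 2-fold higher in replicate 2 and 0 were 2-fold lower. That list also holds inhibitors and cross-linking enzymes and lacks Mmp10, so its median does not describe proteases alone. Saa3, an acute-phase protein, stood at 5.99 and 29.6 CPM, Lcn2, an iron-binding defence protein, at 10.5 and 49.7 CPM and Slpi, a protease inhibitor, at 2.02 and 9.33 CPM. Steap4 stood at 5.53 and 30.2 CPM and St3gal1 at 4.36 and 15.9 CPM.

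Across the chemokine and cytokine list, 8 of the 15 genes averaging 5 CPM or more were at least 2-fold higher in replicate 2 and 0 were 2-fold lower, beside 0.636% and 0.351% of all genes. Its median log2 ratio was 1.72 over 22 genes with a mean of 1 CPM or more. Not all members followed. Cxcl12, a constitutive chemokine, stood at 336 and 305 CPM, Kitl at 166 and 136 CPM and Il33 at 4.69 and 3.27 CPM. Csf1 was abundant and close in both, at 722 and 868 CPM. Below 5 CPM on average, Cxcl5 stood at 0.838 and 6.84 CPM, Ccl20 at 0.506 and 9.44 CPM, Cxcl10 at 0.206 and 2.50 CPM and Il1a at 0.170 and 2.24 CPM. The list was chosen with results of these data known, and its median describes these 2 libraries only.

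**Figure D5:**
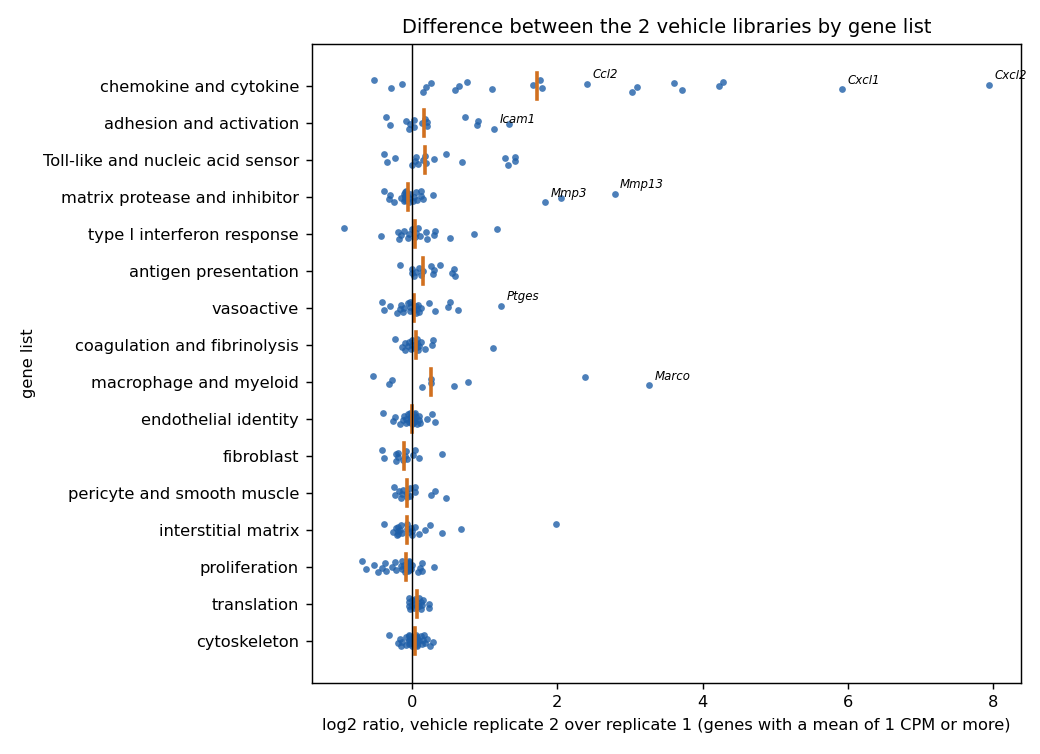
Log2 ratio of vehicle replicate 2 to replicate 1 for genes of 16 lists with a mean of 1 CPM or more, with an orange bar at the list median and a line at 0. The chemokine and cytokine list has a median of 1.72, and endothelial identity, fibroblast, translation and cytoskeleton genes lie close to 0.

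Some genes of leukocyte adhesion and NF-kappaB feedback were higher in replicate 2 as well. Of the 15 adhesion genes averaging 5 CPM or more 2 were at least 2-fold higher. Of 13 Toll-like and sensor genes, a list that holds Nfkbia and Tnfaip3, 2 were as well. Among all genes at that level 0.636% were. Icam1, which arrests leukocytes, stood at 47.2 and 104 CPM, a ratio of 2.20 (95% counting interval 2.07 to 2.33). Sele (E-selectin) stood at 5.19 and 13.1 CPM and Vcam1 was 1.86 times as high in replicate 2 (95% counting interval 1.82 to 1.91). Madcam1 stood at 0.318 and 1.06 CPM. Nfkbia, the inhibitor made in response to NF-kappaB, stood at 37.0 and 89.98 CPM, a ratio of 2.43 (95% counting interval 2.28 to 2.59). Tnfaip3 (A20), a second feedback inhibitor, stood at 15.9 and 42.7 CPM and Ier3 at 129 and 270.0 CPM. Rela, the NF-kappaB subunit gene, stood at 112 and 128 CPM. Nfkb2, Relb and Tnip1, which are outside the lists, stood at 22.8 and 74.4 CPM, 18.3 and 39.0 CPM and 54.1 and 108 CPM. They were picked after their values were seen, so they lend no support to the pattern. Serpinb2 stood at 12.0 and 26.1 CPM. The adhesion list as a whole had a median log2 ratio of 0.16, and 0 of its 15 genes averaging 5 CPM or more were 2-fold lower. Selp (ratio 1.67, 95% counting interval 1.61 to 1.74) and Ackr1 (1.89, 95% counting interval 1.41 to 2.52) were higher in replicate 2 as well.

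Among other groups, median log2 ratios were 0.0042 for endothelial identity, 0.052 for type I interferon response, 0.16 for antigen presentation, -0.11 for fibroblast and -0.085 for proliferation genes. They were further from 0 for nerve and muscle genes (-0.44 over 5 genes with a mean of 1 CPM or more) and adipocyte genes (-1.19 over 2). No gene of the endothelial identity list was 2-fold apart. Isg15 and Ifit1 were near equal as given above, whereas Irf7 stood at 1.32 and 2.40 CPM and Tyk2 at 2.21 and 5.94 CPM. The glucose transporter gene Slc2a3 stood at 5.77 and 13.9 CPM, and the metallothionein gene Mt2 at 53.3 and 85.8 CPM.

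Some macrophage genes were also higher in replicate 2, at low level. Marco, a macrophage scavenger receptor, stood at 0.434 and 4.18 CPM, a ratio of 9.64 (95% counting interval 5.84 to 16.9), and Emr1 (F4/80) at 0.458 and 2.39 CPM. The summed level of the 20 macrophage and myeloid genes was 43.4 and 55.4 CPM, with a median log2 ratio of 0.27 over 10 genes. S100a8 had a ratio of 1.70 (95% counting interval 1.16 to 2.52) and Csf1r, the macrophage growth factor receptor, stood at 2.22 and 3.32 CPM, with a 95% counting interval of the ratio of 1.11 to 2.02. The other markers varied, with Lyz2 as above, Cd68 at 3.72 and 2.99 CPM, Mrc1 at 2.66 and 2.21 CPM, C1qb at 0.998 and 0.954 CPM and Tyrobp at 0.133 and 0 CPM. The part of macrophage RNA in the inflammatory difference was not tested. Replicate 2 was also the shallower library (27528493 against 41528816 counts), and the part of depth was not tested either.

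Genes lower in replicate 2 did not form such a group. Tet2, a DNA demethylation enzyme, stood at 19.1 CPM in replicate 1 and was listed near 0 in replicate 2, at least 175-fold lower against a floor of 3 counts. Ddx41 and Dhx30, helicase genes, stood at 16.7 and 1.11 CPM and at 23.4 and 2.21 CPM. Rnf40, a ubiquitin ligase gene, stood at 12.2 and 1.38 CPM and Aldh6a1, a mitochondrial dehydrogenase gene, at 12.7 and 2.03 CPM. Tpt1-ps3, Pgam1-ps2 and Gm2223 are processed pseudogenes, which can share reads with a parent gene. BC004004, Tuft1, Primpol, Palm2Akap2, Gm20390, Arhgef3 and Gltscr1 made up the rest, from 3.01-fold to 4.78-fold lower. Among list members averaging 5 CPM or more, only Ttn, the giant muscle protein titin, was at least 2-fold lower, with a ratio of 0.384 (95% counting interval 0.298 to 0.491). Genes of this side were thus isolated, and the cause of their difference was not tested.

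Promoters were also described by level, with RefSeq windows of protein-coding genes grouped by TPM. The median ratio of observed to expected CpG dinucleotides in the 250 bases before the start was 0.274 below 0.1 TPM (1478 windows), 0.346 from 0.1 to 1 TPM, 0.594 from 1 to 10 TPM, 0.746 from 10 to 100 TPM and 0.762 from 100 to 1000 TPM. At 1000 TPM or more it was 0.713 over 106 windows. Promoters of genes in the upper classes were thus richer in CpG. The share with TATAAA was 15.6% below 0.1 TPM, 5.62% from 10 to 100 TPM and 13.2% at 1000 TPM or more (14 of 106 windows). The share with the NF-kappaB consensus lay between 4.32% and 6.60% in all 6 classes. Windows cover only genes with at least 1 estimated count, and several windows can belong to 1 gene.

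Large gene families, counted by the start of the gene symbol, give a final view of what was expressed. Such a count can take in a gene that is not of the family. Of 369 Slc transporter genes 211 (57.2%) reached 1 CPM in both libraries, led per length by the mitochondrial carriers Slc25a4, Slc25a5 and Slc25a3. Of 45 genes with a symbol starting with Col and a digit 33 did, led by Col4a1, Col18a1 and Col4a2. Of 67 genes with a symbol starting with Rab and a digit 52 did, led by Rab7, Rab5c and Rab1, which act in endocytic and secretory traffic. Of 50 keratin genes 4 did, led by Krt19 (10.4 and 9.74 CPM) and Krt18 (6.09 and 5.58 CPM), and of 24 claudin genes 4 did, led by Cldn5. Of 100 genes with a symbol starting with Gpr 39 did, led by Gpr124, a receptor needed for brain vessel growth, at 581 and 514 CPM. Of 356 Zfp genes 293 (82.3%) did, of 26 integrin genes 21 (80.8%), and of 12 Cxcl genes 3 (25%). Of the 16 families counted, Zfp had the highest share and Krt (8%) the lowest, beside 57.0% of all protein-coding genes.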

How the data were processed

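Per the labels' protocols, polyA RNA libraries (TruSeq) were sequenced as 75 bp single-end reads. Quantification used kallisto 0.45.0 and R 4.0.0, per the submitters' processing notes, which name the human build GRCh38 although the table lists mouse symbols. The authors deposited estimated counts per gene symbol, unnormalized (97.8% of vehicle values above 0 are not whole within 0.01), which kallisto shares between similar transcripts, so that paralogs and pseudogenes can exchange reads. Strand use is not stated in the sources used here.

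Only the 2 vehicle columns of the 6 were used. CPM was computed over the library total (41528816 and 27528493), and TPM with transcript lengths from GENCODE vM21, in which 29098 of 30055 symbols matched. The median transcript length was the planned scale; because it counts partial transcripts, single genes and list medians are given per longest transcript, an alternative planned beside it, and both are given for the endothelial and fibroblast lists. Ratios used TMM factors (edgeR 4.0.16, R 4.3.3) and exact 95% Clopper-Pearson counting intervals, and a floor of 3 counts. The common coefficient of variation was edgeR's dispersion of rounded counts; the step was checked on simulated data. Promoters came from RefSeq (GRCm38.p6). No test was run, since both libraries belong to 1 group.

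Named genes are members of 56 lists, the 25 highest per length and 10 highest by CPM, the 15 highest and 15 lowest ratios, the 3 highest of each symbol family, and Ch25h. Genes said to be picked or added after values were seen come on top of these. Members and lists were chosen with earlier results of these data known. Alternatives varied the scaling, length, level minimum, set of genes and library left out. A few single-gene results are left out of the text.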

Additional observations from a re-analysis of the deposited data

How the results depend on the processing

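The count of genes at 1 CPM in both libraries (12432) ranged from 11972 (1 TPM per median transcript) to 13880 (10 counts), and was 12705 to 12735 with either library left out. The share of counts in the 100 most abundant genes (20.7%) was 22.99% per length and 19.6% without mitochondrially encoded genes. The rank correlation (0.992) was 0.980 without a level minimum, 0.989 from 10 CPM and, as Pearson's r, 0.989. The common coefficient of variation (0.116) was 0.0878 from 10 CPM and 0.152 over all genes. The 104 genes at least 2-fold apart became 327 from 1 CPM and 29 from 20 CPM. The median percentile of endothelial identity genes (88.8 per median transcript) was 91.8 by CPM, 95.04 per longest transcript, 93.7 per exon union, 82.5 among protein-coding genes at 1 CPM, and 87.6 to 88.3 with a library left out. That of fibroblast genes (64.7) was 70.5 by CPM, 66.1 per exon union, 45.1 among protein-coding genes and 60.7 to 62.1 with a library left out. The cause of these moves was not tested. Scaling by library size or by DESeq2 size factors moved no list's median log2 ratio by more than 0.0014 and changed 0 of 55 signs. Between 1 and 3 CPM the spread between libraries exceeded that of counting error. No paired analysis was possible because 1 group alone was used.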

Other observations

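A few single genes, picked after their values were seen, stood out by level. Zrsr1, a splicing factor gene copied from an X-linked relative, stood at 2688 and 1297 CPM, a log2 ratio of -1.05 between the libraries, and ranked 33 by mean CPM. Grip2, a synaptic scaffold gene, stood at 884 and 411 CPM (log2 ratio -1.10). PCDHGB6, written in the capitals of a human symbol, stood at 428 and 436 CPM. 3 genes named Gm28661 (1003 and 1136 CPM), Gm10925 (863 and 880.3 CPM) and Gm29216 (715 and 894 CPM) are predicted genes with high levels per length. Ndufa4 was listed at 1.24e-06 and 2.32e-08 CPM, whereas Cyc1, the lowest of the other nuclear respiratory chain genes examined, stood at 31.9 and 33.7 CPM. What lies behind these levels was not tested.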
